A study of Homo sapiens with 6 samples.

Results

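Expression was profiled by RNA-seq in EJ, an established human cell line of bladder cancer (BLCA), and 10 integrin subunits of epithelial cells are described here out of the 15953 genes in the expression tables. The members were chosen by gene symbol, with earlier results of these data known. They are 5 alpha subunits (ITGA2, ITGA3, ITGA5, ITGA6 and ITGAV) and 5 beta subunits (ITGB1, ITGB3, ITGB4, ITGB5 and ITGB6). All 10 were found. The samples were 3 libraries of stable STIL-knockdown EJ cells (shSTIL) and 3 libraries of their negative controls (shNC), both carrying a lentiviral vector. STIL encodes a centriole protein, and the study asked what its loss does to BLCA cells. The hairpin sequence, the promoter driving it and whether a line was 1 clone are not given in the sources used here. The sample labels say short hairpin, whereas the design text and the table headings say siRNA, so groups follow the sample labels. No label says that the 3 libraries of a group came from separate cultures, so p-values measure only the spread between these libraries.

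Integrins are receptors that join the matrix outside a cell to actin or keratin filaments inside it. Each is a pair of 1 alpha and 1 beta subunit, assembled before it reaches the cell surface, and the pair decides which matrix protein is bound. ITGB1 is the shared partner of many alpha subunits, and ITGAV is an alpha subunit with several beta partners. ITGA6 with ITGB4 forms the hemidesmosome receptor that ties the basal epithelial cell, urothelium included, to laminin.

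In STIL-knockdown EJ cells, 6 of the 10 integrin mRNAs rose, namely all 5 alpha subunits and ITGB5. ITGB1, ITGB3 and ITGB6 fell, and ITGB4 did not pass the test. These calls are differentially expressed genes (DEGs), defined as an adjusted p under 0.01 from limma fitted over all genes with Benjamini-Hochberg adjustment. The background was high, since 47.1% of all genes tested were DEGs, 23.5% higher and 23.6% lower in shSTIL. Among genes averaging at least 1 log2 CPM, a level that 9 of the 10 integrins reached, 61.9% were DEGs. The median log2 fold change of the 10 integrins was 0.18, beside 0.00523 over all genes.

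The knockdown was read first from STIL itself. The log2 CPM of STIL stood at 5.98, 6.10 and 6.01 in shNC and at 4.05, 4.06 and 4.01 in shSTIL, which left 25.2% of the control level (log2 fold change -1.99, with a standard error, SE, of 0.05, limma adjusted p = 6.1e-12). Depth was even, at 16214800 to 16901600 reads per library. The epithelial label was checked against markers. Of 16 urothelial and epithelial markers, 13 were in the tables, and KRT18, KRT8 and KRT7 made up most of their summed level, 1090 to 1130 CPM in shNC and 1000 to 1040 CPM in shSTIL. CDH1, the E-cadherin gene, had 0 to 3 reads per library, KRT5 at most 1 and EPCAM 15 to 21, whereas PPARG, a urothelial transcription factor, had 302 to 405. KRT17 had 0 to 4, TP63 9 to 14 and GATA3 4 to 9. The uroplakin genes UPK1A, UPK1B and UPK2 had 19 to 33, 5 to 20 and 0 to 5. EJ cells thus expressed simple keratins and PPARG but had few or no reads of the other markers, E-cadherin, EPCAM and KRT5 included. Of the 13 markers, KRT7 and PPARG rose, KRT8 and UPK1B fell and 9 did not pass the test. Mesenchymal markers (5 of 6 in the tables) summed to 1470 to 1500 CPM in shNC and to 961 to 984 CPM in shSTIL. VIM, which encodes vimentin, made up most of that sum and fell by 0.68 on the log2 scale (limma adjusted p = 8.1e-10). ZEB2 was a DEG in the other direction, with 185 to 192 reads per shNC library and 321 to 355 per shSTIL library. CDH2, ZEB1 and SNAI2 did not pass the test, so the lower sum describes VIM and not the list. Fibroblast and muscle markers (3 of 5 in the tables) summed to 3.1 to 4.89 CPM in shNC and 6.8 to 7.41 CPM in shSTIL, mostly ACTA2, with DES under 3 reads in every library. Leukocyte markers (2 of 5 in the tables) and the 4 endothelial markers each stayed below 1 CPM in sum in every library, with VWF and KDR under 3 reads. The part of these shifts in the integrin values was not tested. In bulk RNA, fewer cells of a type and less RNA per cell cannot be told apart.

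**Figure D1:**
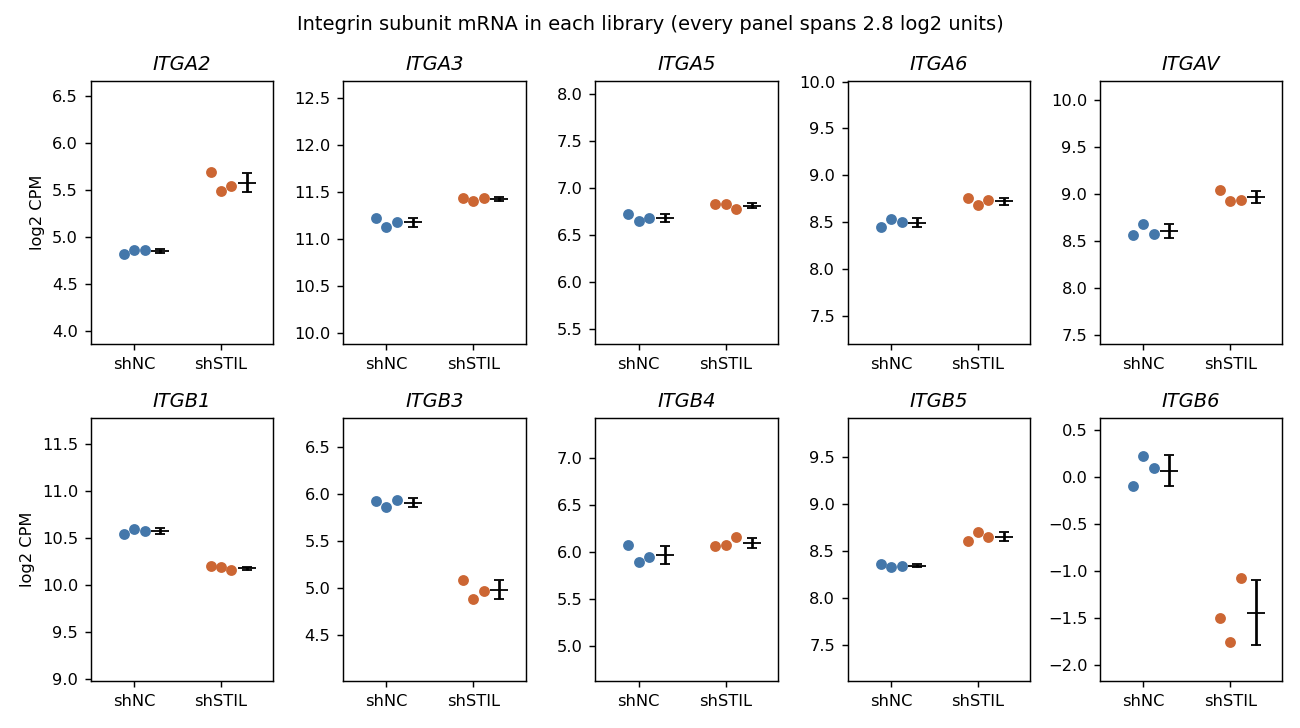
The log2 CPM of the 10 integrin subunits in each library, with shNC libraries in blue and shSTIL libraries in orange, and the mean and SD (n = 3) in black beside them. The 5 alpha subunits and ITGB5 lie higher in shSTIL, ITGB1, ITGB3 and ITGB6 lie lower, and the ITGB4 points overlap.

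Among the alpha subunits, ITGA2 changed most. It encodes the collagen-binding alpha 2 chain, which pairs with ITGB1 (chromosome 5 of GRCh38, 52989326 to 53094779, plus strand). Its log2 CPM was 4.82, 4.86 and 4.86 in shNC and 5.69, 5.49 and 5.54 in shSTIL. These values rest on 450, 472 and 460 reads against 879, 772 and 788, so the lowest shSTIL library was well above the highest shNC library. The log2 fold change was 0.73 (SE 0.06, limma adjusted p = 1.3e-07), a 1.65-fold rise. Across all genes, 14.5% moved by more than ITGA2 in either direction.

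ITGAV encodes the alpha V chain, which binds RGD-bearing ligands such as vitronectin and latent TGF-beta (chromosome 2, 186590065 to 186680901, plus strand). The shNC libraries read 8.56, 8.68 and 8.57 log2 CPM and the shSTIL libraries 9.04, 8.92 and 8.93. All 3 shSTIL values were higher, and the log2 fold change was 0.36 (SE 0.04, limma adjusted p = 6.0e-06).

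ITGA3, the laminin-binding alpha 3 chain, drew the most reads of the 10, with 36641 to 38438 per shNC library and 46656 to 47446 per shSTIL library (chromosome 17, 50055968 to 50090481, plus strand). Its log2 CPM rose from 11.23, 11.13 and 11.18 to 11.44, 11.41 and 11.44 with no overlap, a log2 fold change of 0.25 (SE 0.04, limma adjusted p = 7.0e-05). ITGA6, the laminin-binding alpha 6 chain (chromosome 2, 172427354 to 172506282, plus strand), measured 8.45, 8.54 and 8.50 log2 CPM in shNC and 8.76, 8.69 and 8.74 in shSTIL. Its log2 fold change was 0.23 (SE 0.03, limma adjusted p = 5.4e-05), and the adjusted p was 0.01155 without shSTIL replicate 3. These laminin receptors thus showed small shifts that exceeded the spread of their libraries.

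ITGA5 encodes the alpha 5 chain of the fibronectin receptor (chromosome 12, 54395261 to 54419460, minus strand). Its values were 6.73, 6.65 and 6.68 log2 CPM in shNC and 6.83, 6.83 and 6.78 in shSTIL. The groups did not overlap, but shNC replicate 1 and shSTIL replicate 3 lay close together. The log2 fold change of 0.13 (SE 0.04, limma adjusted p = 0.00706) was the least secure of the 9 calls. It was kept in 5 of 14 alternative fits and, among fits leaving out 1 library, only without shNC replicate 1, the adjusted p reaching 0.0412 in the others.

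ITGB1, the common beta 1 chain (chromosome 10, 32900319 to 33005792, minus strand), went the other way from its 5 alpha partners. The shNC libraries had 10.54, 10.60 and 10.57 log2 CPM and the shSTIL libraries 10.20, 10.19 and 10.16. Every shSTIL library was lower, with a log2 fold change of -0.39 (SE 0.03, limma adjusted p = 2.7e-07), and shSTIL cells kept 76.5% of the shNC level. At 19486 to 25326 reads per library, counting error was small.

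ITGB3, the beta 3 chain that pairs with ITGAV in the vitronectin receptor (chromosome 17, 47253846 to 47311816, plus strand), fell further. It had 978, 944 and 976 reads in shNC and 582, 508 and 530 in shSTIL, which gave 5.93, 5.86 and 5.94 against 5.09, 4.89 and 4.97 log2 CPM. The highest shSTIL value was far below the lowest shNC value. The log2 fold change was -0.93 (SE 0.06, limma adjusted p = 1.1e-08), which left 52.6% of the control level. AC068234.1, a protein-coding gene annotated on the same strand, overlaps ITGB3. It has no values of its own, so reads of the pair cannot be told apart.

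ITGB6, the beta 6 chain of an ITGAV receptor found on epithelia (chromosome 2, 160099666 to 160200313, minus strand), was close to the limit of detection. Its reads numbered 13, 17 and 15 in shNC and 4, 3 and 6 in shSTIL. Summed over libraries, 13 reads against 45 were 28.0% of the control at equal depth (exact 95% interval 13.9% to 52.9%, for counting error only). On the log2 CPM scale, values were -0.10, 0.22 and 0.09 against -1.50, -1.76 and -1.08, with a log2 fold change of -1.51 (SE 0.26, limma adjusted p = 1.8e-04). The pseudocount in log2 CPM, 2 reads, understates changes at this depth. AC092153.1, which has no values of its own, overlaps ITGB6 on the same strand, so reads of the pair cannot be told apart.

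ITGB5 and ITGB4 were the beta subunits that did not fall. ITGB5, the beta 5 chain of another vitronectin receptor with ITGAV (chromosome 3, 124761948 to 124901418, minus strand), measured 8.36, 8.33 and 8.34 log2 CPM in shNC and 8.60, 8.70 and 8.65 in shSTIL. All shSTIL libraries were higher (log2 fold change 0.31, SE 0.03, limma adjusted p = 2.4e-06). AC022336.3 and the pseudogene ENO1P3, which have no values of their own, overlap ITGB5 on the same strand. ITGB4, the hemidesmosome beta 4 chain (chromosome 17, 75721328 to 75757818, plus strand), measured 6.07, 5.89 and 5.94 against 6.06, 6.07 and 6.16. Its groups overlapped, because shNC replicate 1 was above shSTIL replicate 1, and the log2 fold change of 0.13 had a 95% interval of 0.02 to 0.24 (limma adjusted p = 0.0469). ITGB4 also overlaps GALK1 on the opposite strand, and whether the counting used strand is not stated.

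The groups did not overlap for 9 of the 10 integrins, beside 60.3% of all genes. For each of the 9, p was 0.1 by exact two-sided permutation, the smallest that the 20 labellings of 3 against 3 allow, and for ITGB4 the exact permutation p was 0.3. No integrin changed sign in any alternative fit. The plot of fold changes sets these differences side by side.

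**Figure D2:**
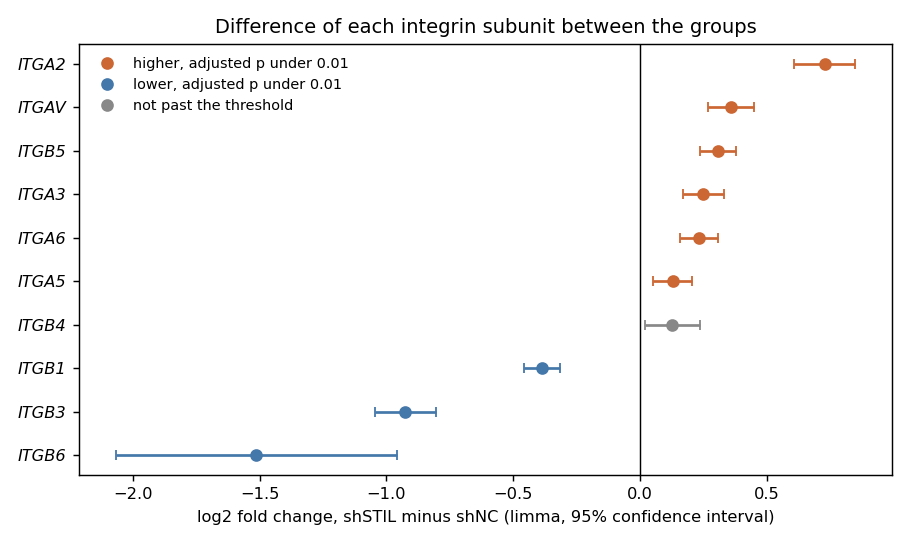
The log2 fold change (shSTIL minus shNC) of each integrin subunit on the horizontal axis, with its 95% confidence interval from limma. Values run from -1.51 for ITGB6 to 0.73 for ITGA2, and the ITGB6 interval is the widest.

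Because each integrin is assembled from 1 alpha and 1 beta chain, the log2 ratio of alpha to beta mRNA was computed within each library for 9 known heterodimers. The pairs share subunits, so the ratios are not independent, and a ratio of log2 CPM carries the lengths of both transcripts. Only its difference between groups is compared. All 5 pairs with ITGB1 shifted towards the alpha subunit. The ITGA2 to ITGB1 ratio, the collagen receptor, went from -5.74 to -5.71 in shNC to -4.69 to -4.51 in shSTIL, a difference of 1.11. For the laminin receptors the difference was 0.63 with ITGA3 and 0.62 with ITGA6, and for the fibronectin receptor with ITGA5 it was 0.52. ITGAV to ITGB1 moved by 0.75. None of these pairs overlapped between groups (exact two-sided permutation test, p = 0.1 for each, the smallest possible). That separation was fixed by the single genes, because every alpha subunit lay higher and ITGB1 lower without overlap. It is therefore not a further result about the pairs.

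The pairs of ITGAV differed by beta partner. Its ratio to ITGB3 went from 2.62 to 2.83 in shNC to 3.94 to 4.03 in shSTIL, a difference of 1.29. Its ratio to ITGB6 moved by 1.87, on few ITGB6 reads (exact permutation p = 0.1 for both ratios). For both, the separation was again fixed by the single genes, since ITGAV lay higher and ITGB3 and ITGB6 lower without overlap. With ITGB5 the ratio was 0.26 ± 0.08 (SD, n = 3) in shNC and 0.31 ± 0.11 (SD, n = 3) in shSTIL, and the groups overlapped (exact permutation p = 0.6). ITGA6 to ITGB4, the hemidesmosome pair, read 2.53 ± 0.14 (SD, n = 3) and 2.63 ± 0.06 (SD, n = 3), again with overlap (exact permutation p = 0.4). Its difference of 0.10 was 0.0274 without shNC replicate 1 and 0.165 without shNC replicate 2. For the ITGB5 and ITGB4 pairs the difference, 0.05 and 0.10, was smaller than the SD among shNC libraries, which does not show that the ratios were equal.

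**Figure D3:**
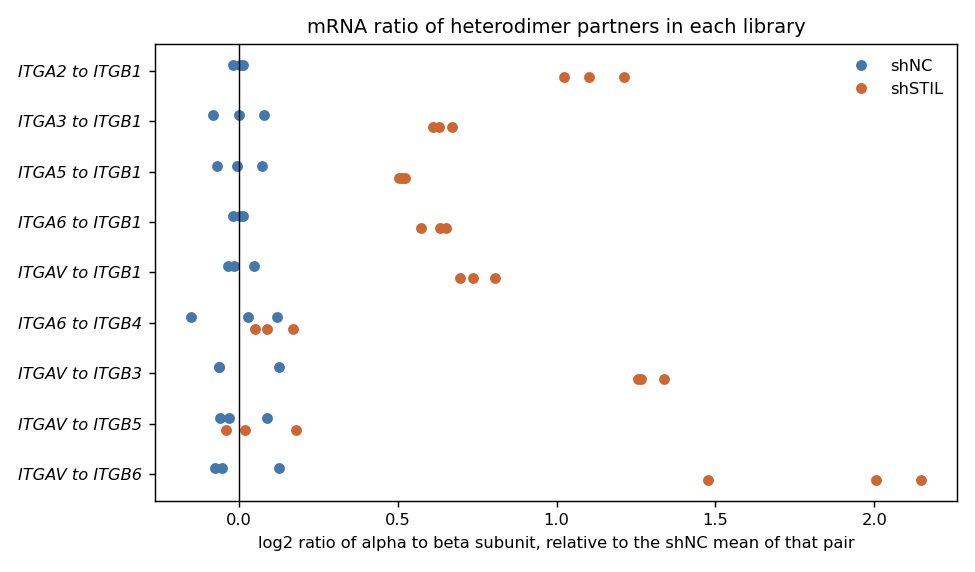
The log2 ratio of alpha to beta mRNA for 9 heterodimers, 1 point per library, on a horizontal axis set to 0 at the shNC mean of each pair. The shSTIL points lie to the right of the shNC points for 7 pairs and overlap them for ITGA6 to ITGB4 and ITGAV to ITGB5.

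Levels of different integrins were compared as reads per kilobase of the longest coding transcript and per 1000000 reads (RPKM). This scale uses the plain read total, not the scaled library size behind log2 CPM, so it orders genes within a group. In shNC, ITGA3 (468 ± 12.4, SD, n = 3) and ITGB1 (395 ± 11.2) were far above the rest. ITGB5 followed at 73.1 RPKM, then ITGA6 at 63.3, ITGAV at 54.5, ITGA5 at 22.8, ITGB3 at 14.8, ITGB4 at 10.4, ITGA2 at 3.58 and ITGB6 at 0.196. Neighbours in this order had separate ranges over the 3 libraries. In shSTIL the order was the same except that ITGB4 (11.7 RPKM) stood above ITGB3 (8.03 RPKM), and ITGA6 (74.6 to 77.9) and ITGAV (70.2 to 75.6) overlapped. The order depends on the length used. Per kilobase of all exons, ITGB1 (249) stood above ITGA3 (233) in shNC but not in shSTIL (196 against 286). On that scale ITGA6 stood above ITGB5 in both groups (54.4 against 49.6 in shNC, 65.9 against 63.3 in shSTIL), and ITGB3 (13.5) was narrowly above ITGA5 (13.4) in shNC.

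**Figure D4:**
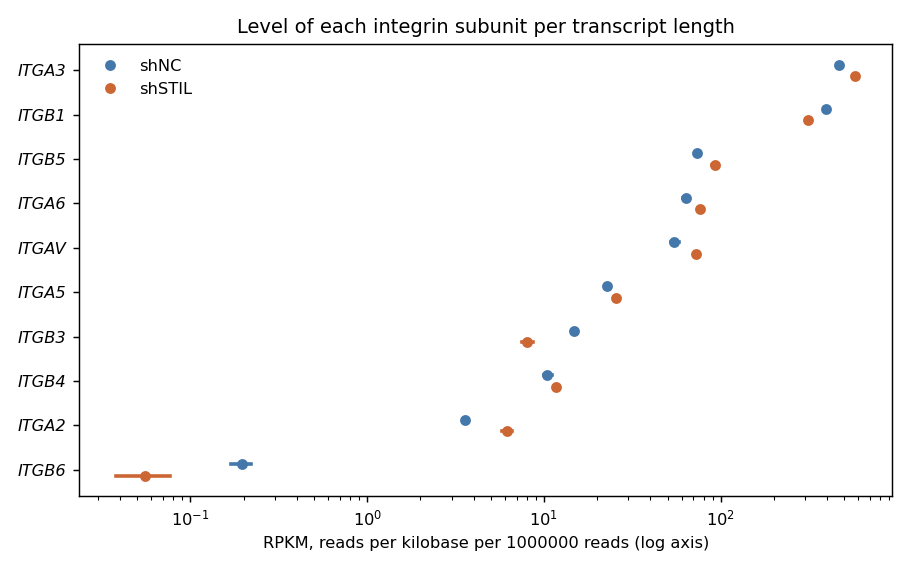
The level of each integrin subunit in RPKM on a log axis, with the mean (point) and the range of 3 libraries (line, hidden where narrower than the point) for shNC in blue and shSTIL in orange. ITGA3 and ITGB1 are the most abundant in both groups, and ITGB6 is lowest.

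The make-up of the beta pool is given as a description. Of the summed RPKM of the 5 beta subunits, ITGB1 held 80.1% ± 0.641 (SD, n = 3) in shNC and 73.4% ± 0.618 in shSTIL. ITGB5 held 14.8% ± 0.363 and 22% ± 0.702, ITGB3 held 3% and 1.89%, and ITGB4 held 2.11% and 2.76%. Of the 5 alpha subunits, ITGA3 held 76.4% ± 1.09 in shNC and 76.0% ± 0.452 in shSTIL. The alpha pool summed to 1.24 ± 0.04 times the beta pool in shNC and 1.77 ± 0.0389 times in shSTIL, a quantity chosen after its values were seen. With total exon length the ratio was lower, 1.09 ± 0.0263 in shNC and 1.57 ± 0.0361 in shSTIL. The difference was 1.43-fold with either length, but fixed lengths largely cancel in such a fold, so this is not a separate check. The shares above are for the longest coding transcript.

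The study lists 3 siRNAs against STIL, and their seeds, which can pair with the 3′ UTRs of other mRNAs, were looked up in the integrins. The hairpin of the sequenced cells may differ from all of them. The antisense strands are shown with bases 2 to 8 in capitals.
siSTIL#1: aAUAUGUAucgcaaacagctt
siSTIL#2: uUAAUCCAgagaucacugctt
siSTIL#3: uUGUGGAAcaguaagauggtt
The complementary 7-base words were searched on the sense strand of the longest 3′ UTR in GENCODE 29. The background is 11079 genes averaging at least 1 log2 CPM, a level that ITGB6 did not reach. The word of siSTIL#1 (TACATAT) occurs in 18.2% of these genes. The word of siSTIL#2 (TGGATTA) occurs in 12.2%, and that of siSTIL#3 (TTCCACA) in 16.4%. Of the 10 integrins, 4 hold at least 1 of them. The share of all genes holding at least 1 was not computed, so this count is not read as a result about the integrins. ITGB1 and ITGB3, which fell, have 1 word each, shown in capitals with 10 bases on either side, the first at chr10:32901272-32901298 (minus strand) and the next at chr17:47311045-47311071 (plus strand) of GRCh38.
ITGB1, siSTIL#2 word: tcaagcttatTGGATTAagtgatattt
ITGB3, siSTIL#3 word: tacctcctaaTTCCACAccctcactgc
ITGAV, which rose, has 1 word, at chr2:186677723-186677749 (plus strand). ITGA2, which rose most, has 5 in a 3′ UTR of 4180 bases, the longest of the 10, and the first is at chr5:53091204-53091230 (plus strand).
ITGAV, siSTIL#1 word: ttaatgttaaTACATATtacactacag
ITGA2, siSTIL#3 word: cggctgccccTTCCACAccccatcttg
Integrins with a word therefore include mRNAs that rose and mRNAs that fell, and the part of seed pairing in either was not tested.

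The other integrin subunits were mostly scarce. All 16 listed were in the tables, 8 of them averaging at least 1 log2 CPM. In shSTIL, 2 were higher, 2 were lower and 12 did not pass the test, with a median log2 fold change of 0.25 over the 16 and of 0.0555 over those 8. DEGs were thus 25% of the 16, beside 47.1% of all genes. They were all among the 8 averaging at least 1 log2 CPM, a level at which 61.9% of all genes were DEGs. ITGB2, the beta 2 chain known from leukocytes, went from 11 to 14 reads per shNC library to 97 to 118 per shSTIL library. Its log2 CPM was -0.31, -0.03 and -0.30 against 2.81, 2.53 and 2.57 (log2 fold change 2.85, SE 0.18, limma adjusted p = 2.0e-08). ITGA10, a collagen-binding chain, rose by 0.90 on the log2 scale (SE 0.05, limma adjusted p = 4.8e-09). ITGA11 and ITGA1, collagen-binding chains as well, had log2 fold changes of -0.57 (SE 0.13) and -0.52 (SE 0.14). The ITGA1 call (limma adjusted p = 0.00743) did not hold in any of the 6 fits that dropped a library. ITGB8, a further partner of ITGAV, measured 4.65, 4.71 and 4.73 log2 CPM in shNC and 4.58, 4.63 and 4.58 in shSTIL and was not a DEG (limma adjusted p = 0.164).

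Matrix ligands of these receptors moved in both directions. Of 22 listed, 21 were in the tables, and 9 rose, 6 fell and 6 did not pass the test (median log2 fold change -0.10). DEGs were thus 71.4% of the 21, beside 47.1% of all genes and 61.9% of those averaging at least 1 log2 CPM. Laminin beta and gamma chains and collagen IV chains, from basement membrane ligands of ITGA3, ITGA6 and ITGA2, were among those that rose. Among them, LAMC1 had a log2 fold change of 0.73, COL4A1 of 0.79, COL4A2 of 0.57, LAMB1 of 0.48 and LAMB3 of 0.34. The laminin alpha chains listed, LAMA5 and LAMA3, went the other way. LAMA5 was lower, at -0.34, and LAMA3, at -0.45, did not pass the test (limma adjusted p = 0.0363). NID1, also listed, was lower, at -0.21 (limma adjusted p = 3.0e-04). LAMC1, COL4A1, COL4A2, LAMB1, LAMB3, LAMA5, LAMA3 and NID1, as well as ITGB8 and VTN, were named after their values were seen.

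CCN2 and CCN1, secreted matrix proteins that bind ITGAV receptors, both rose. CCN2 went from 9.47, 9.45 and 9.46 log2 CPM to 10.55, 10.56 and 10.58 (log2 fold change 1.11, SE 0.03, limma adjusted p = 8.9e-12), and CCN1 differed by 1.06 on that scale (limma adjusted p = 1.3e-11). Conversely, FN1, the fibronectin bound by ITGA5 with ITGB1, fell from 6.46, 6.49 and 6.37 to 5.35, 5.14 and 5.27, with 43.8% of the control left (log2 fold change -1.19, SE 0.05, limma adjusted p = 8.8e-10). THBS1, thrombospondin 1, fell by 0.93 on the log2 scale (limma adjusted p = 2.7e-09), from 939 to 1018 reads per shNC library to 531 to 567 per shSTIL library. COL1A1, on 21 to 59 reads per library, changed by -0.96 on the log2 scale (limma adjusted p = 0.00196), and the call was lost in 5 of 6 fits that left out a library, all but that without shNC replicate 2. VTN, the vitronectin gene, had 0 to 2 reads per library.

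Inside the cell, 35 of 36 listed genes of the adhesion complex were in the tables. In shSTIL 13 rose, 9 fell and 13 did not pass the test (median log2 fold change 0.09). The share of DEGs was 62.9% of the 35, beside 47.1% of all genes and 61.9% of those averaging at least 1 log2 CPM. Of the 35, 32 reached that level, so the last share is over a different kind of set. TLN1, the talin that binds the beta tail and activates integrins, measured 8.88, 8.79 and 8.84 log2 CPM in shNC and 8.61, 8.45 and 8.54 in shSTIL (log2 fold change -0.30, SE 0.04, limma adjusted p = 2.6e-05). The TLN1 call was lost without shNC replicate 1, shNC replicate 3 or shSTIL replicate 3, with an adjusted p of 0.0107 to 0.0149. Its paralog TLN2, on 54 to 94 reads per library, differed by 0.48 on the log2 scale (limma adjusted p = 0.00966), lost whichever library was left out. FERMT2, kindlin-2, the other activator of the beta tail, rose by 0.35 on the log2 scale (limma adjusted p = 8.1e-06).

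ILK, the kinase-like scaffold on the beta tail, rose from 7.39, 7.43 and 7.41 log2 CPM to 7.82, 7.88 and 7.86 (log2 fold change 0.44, limma adjusted p = 4.6e-08). PTK2, focal adhesion kinase, did not pass the threshold (log2 fold change 0.11, limma adjusted p = 0.0211). TNS3, a tensin, and LPP, an adhesion scaffold, had log2 fold changes of 0.52 and 0.51 (limma adjusted p = 4.8e-06 and 6.9e-07). ACTN4, an alpha-actinin that crosslinks actin, fell most, from 9.66, 9.56 and 9.60 log2 CPM to 8.70, 8.63 and 8.69 (log2 fold change -0.93, SE 0.03, limma adjusted p = 1.1e-10). VCL, vinculin, changed by -0.28 on the log2 scale (limma adjusted p = 3.6e-06).

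All 4 hemidesmosome partners of ITGA6 and ITGB4 were DEGs, 3 lower and 1 higher (median log2 fold change -0.31), beside 47.1% of all genes. CD151, the tetraspanin bound to laminin-binding integrins, measured 8.31, 8.24 and 8.33 log2 CPM in shNC and 7.96, 8.01 and 7.94 in shSTIL (log2 fold change -0.32, limma adjusted p = 2.1e-06). PLEC, the plectin that links ITGB4 to keratin, changed by -0.31 on the log2 scale (limma adjusted p = 8.3e-06). COL17A1, named after its values were seen, had 12 to 19 reads per shNC library and 6 to 9 per shSTIL library. DST, the dystonin gene, was higher by 0.17 on the log2 scale (limma adjusted p = 0.00336), a call that held in none of the 6 fits that dropped a library.

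Of 17 genes that inhibit integrins or carry them through endosomes, 6 rose, 4 fell and 7 did not pass the test (median log2 fold change 0.05). The share of DEGs was 58.8%, beside 47.1% of all genes and 61.9% of those averaging at least 1 log2 CPM. The endocytic adaptors DAB2 and NUMB rose by 0.63 and 0.33 on the log2 scale (limma adjusted p = 2.2e-07 and 5.7e-06), as did the early endosome GTPase RAB5A by 0.56 (limma adjusted p = 5.4e-08). RAB11A and ARF6, GTPases that return integrins to the surface, had log2 fold changes of -0.57 and -0.43 (limma adjusted p = 3.0e-08 and 7.2e-08). RAB11A read 7.33, 7.38 and 7.34 log2 CPM in shNC and 6.74, 6.86 and 6.75 in shSTIL. RAB11B had a log2 fold change of -0.28, with its call lost in 5 of 6 fits that left out a library, all but that without shNC replicate 2. The fourth lower gene, CLIC3, had at most 3 reads in any library and was named after its values were seen.

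Membrane partners of integrins split likewise, with 4 higher, 5 lower and 2 not past the test among 11 (median log2 fold change -0.09). All 11 averaged at least 1 log2 CPM, and 81.8% were DEGs, beside 61.9% of all genes at that level. The tetraspanins CD63 and CD9 fell by 0.95 and 0.82 on the log2 scale (limma adjusted p = 2.7e-10 and 2.5e-10). CD9 read 7.92, 7.92 and 7.91 log2 CPM in shNC and 7.06, 7.07 and 7.15 in shSTIL. CD82, another tetraspanin, rose by 0.50 (limma adjusted p = 4.0e-06). PLAUR, the urokinase receptor, and SLC3A2, the CD98 heavy chain that binds beta tails, rose by 0.73 and 0.64 (limma adjusted p = 6.6e-09 and 1.3e-09). SDC1, the matrix co-receptor syndecan-1, changed by -0.78 (limma adjusted p = 3.4e-09). In all, 35 of the 104 partner genes measured in these 6 lists were higher and 29 lower in shSTIL. Of all genes, 23.5% were higher and 23.6% lower, and 61.9% of those averaging at least 1 log2 CPM were DEGs. Not all 104 partners reach that level, so neither share is a matched background. The lists were chosen with earlier results known and no set test was run, so the partner counts are not read as a result about the partners. The plot of lists shows each partner gene.

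**Figure D5:**
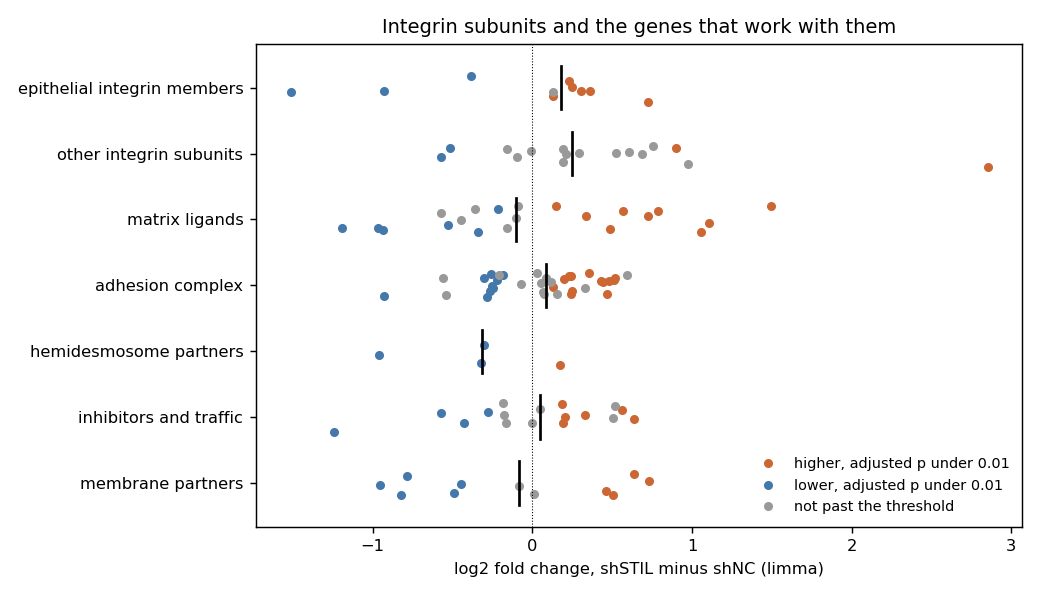
The log2 fold change (shSTIL minus shNC) of every measured gene of the integrin group and of the 6 partner lists, 1 point per gene, coloured by its limma call, with the median of each list as a black bar. Each list holds genes on both sides of 0, and ITGB2, at 2.85, is farthest to the right.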

How the data were processed

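The study's methods state that the authors sequenced total RNA on a BGISEQ-500, filtered the reads, used Bowtie2 to place them on a transcriptome, and ran RSEM for the reads per gene. The submitters' processing notes name hg38. The deposited log2 CPM tables cover 15953 genes in all 6 libraries. The deposited expected counts, not normalized, cover 15957 genes in 1 shNC and 3 shSTIL libraries. The authors' values share reads between similar transcripts, so paralogs are uncertain.

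Reads were recovered from the log2 CPM (prior count 2). In shNC replicate 1 and shSTIL replicates 1 to 3 they differed from the deposited estimated counts by at most 0.000492 reads. For shNC replicates 2 and 3 there were no counts to check against. Of values below 1000 reads, 85.5% to 86.2% were whole within 0.01. Rounded reads entered the edgeR 4.0.16 and DESeq2 1.42.0 alternatives. The main fit was limma 3.58.1 (R 4.3.3, eBayes with a mean-variance trend) on log2 CPM of all genes, no block, adjusted p under 0.01, chosen because counts cover 1 shNC library. The design allowed for count tables in whole reads, which hold estimates. Single values were compared by exact permutation of 20 labellings (scipy 1.17.1). Lengths, positions and 3′ UTR sequences came from GENCODE 29 (GRCh38), and the siRNAs from the study's oligonucleotide list.

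The members and lists were chosen with earlier results of these data known. Named genes are all members, the 3 largest rises and falls among DEGs of each list that average at least 1 log2 CPM, and TLN1, FERMT2, ILK and PTK2. A gene that this rule names is not reported here. Protein sequences were not used here. The scripts were tested on simulated data.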

Additional observations from a re-analysis of the deposited data

How the results depend on the processing

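No integrin subunit changed sign in any fit run (14 alternatives, 13 for ITGB6, which a minimum mean log2 CPM of 1 removes), and ITGA2, ITGA3, ITGAV, ITGB1, ITGB3 and ITGB5 kept their calls in all 14 and ITGB6 in its 13. ITGA5 kept its direction but lost its call with no trend (log2 fold change 0.13, limma adjusted p = 0.0458), with median centring (0.12, adjusted p = 0.0115) and with DESeq2 (0.13, adjusted p = 0.0133). Leaving out 1 library at a time, ITGA5 ranged from 0.11 to 0.15 and ITGA6 from 0.21 to 0.26, with ITGA6 at 0.23 without shSTIL replicate 3. The number of DEGs was 4900 to 5638, and the partner genes lower in shSTIL were 15 to 21, with 19 without shNC replicate 3 and 15 and 4900 DEGs without shSTIL replicate 3. At an adjusted p under 0.05, ITGB4 passed (0.13, adjusted p = 0.0469). With only the count tables (1 shNC library, no test), log2 fold changes were 0.76 for ITGA2, 0.28 for ITGA6, -0.35 for ITGB1, 0.025 for ITGB4 and -1.34 for ITGB6. After quantile normalization the ratios to ITGB1 differed between groups by 1.00 (ITGA2), 0.72 (ITGA3), 0.41 (ITGA5), 0.52 (ITGA6) and 0.64 (ITGAV), and the log2 fold change of ITGA3 was 0.45. On the log2(CPM + 1) scale ITGAV to ITGB6 differed by 0.98 and ITGB6 by -0.62, the larger pseudocount compressing low values. The ITGAV to ITGB5 difference ranged up to 0.099 with 1 library left out and reversed to -0.012 without shSTIL replicate 1. The cause of the other shifts was not tested.

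Same-numbered libraries of the groups did not deviate together (correlations -0.12, -0.06 and -0.11). This does not show whether they were prepared together, which no label states. With a replicate block, 6898 genes were DEGs in place of 7509, and ITGA5 lost its call (0.13, limma adjusted p = 0.0160), as did TLN2 and DST. Depth limits ITGB6, at 3 to 17 reads per library.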
